A study of Homo sapiens with 6 samples.

Results

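The replication-dependent histone genes are the many short genes, most of them without introns, that lie in clusters on a few chromosomes and carry symbols beginning with HIST1H, HIST2H, HIST3H or HIST4H. The GENCODE release 29 annotation of GRCh38 holds 71 protein-coding genes with such symbols, and 59 of them had a row among the 18278 genes measured here. The rule takes genes by symbol, matched through the Ensembl identifier. The other 12 genes, which include HIST1H1A, HIST1H3C, HIST1H3D, HIST1H3E and HIST3H3, are not analysed here. RNA came from Toledo, an established human suspension line from a lymphoma of large B cells. In one group, 3 samples (replicates 1 to 3) were cultured for 6 days with TP-064 at 5 uM. TP-064 inhibits CARM1, an enzyme that methylates arginine residues in histone H3 and in other nuclear proteins. The comparison group was 3 samples (replicates 1 to 3) cultured for the same 6 days with DMSO, the solvent. Both groups were the same unmodified line in RPMI 1640 medium, so the results describe 1 cell line at 1 dose and 1 time. Nothing in the labels tells whether each replicate was its own culture, so the p-values below rest on a spread between samples that may be technical only.

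Nucleosomes wrap DNA around an octamer of the core histones H2A, H2B, H3 and H4, and the linker histone H1 binds where DNA enters and leaves. A dividing cell must make new histones as it copies its DNA, so most of the supply is made in S phase from these clustered genes. Their transcription is driven by NPAT, which cyclin E and CDK2 activate in histone locus bodies. Their messages differ from those of nearly all other genes in that they are not normally polyadenylated. They end instead a few bases after a conserved stem-loop that is bound by SLBP and cut by a complex containing the U7 small nuclear RNP. Some of these genes also give longer polyadenylated transcripts. The libraries here were made from polyadenylated RNA with a stranded kit, so every value below is for RNA that passed that selection, and the share of histone messages with a poly(A) tail was not measured. Linker histone genes of this group are recurrently mutated in B cell lymphomas.

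The annotated transcripts were searched for the stem-loop, since it separates this class of message from others. Of the 59 listed genes, 25 have a model that ends at the stop codon, and the other 34 have an annotated 3′ UTR. In 30 of those 34 the UTR of at least 1 annotated transcript held the pattern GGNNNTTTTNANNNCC on the sense strand, in 5 versions. The commonest version was present in 17 genes. Examples are shown as the DNA sequence of the sense strand from GENCODE, 5′ to 3′, with the stem-loop in capitals and 5 flanking bases on each side. HIST1H2AC and HIST1H2BD are abundant genes that gave lower values after TP-064, HIST1H2BE and HIST2H4A are the 2 genes that gave higher values, and HIST1H4E carries the version found in 5 genes, all of type H4.
HIST1H2AC: ccaaaGGCTCTTTTCAGAGCCcccct
HIST1H2BD: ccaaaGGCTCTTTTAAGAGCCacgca
HIST1H2BE: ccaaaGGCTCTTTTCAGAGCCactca
HIST2H4A: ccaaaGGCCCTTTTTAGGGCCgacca
HIST1H4E: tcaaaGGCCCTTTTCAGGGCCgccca
The 2 genes with higher values carry versions of the stem-loop that also occur in genes with lower values.

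Promoters were compared because genes of one histone type are activated through shared elements, with the octamer ATTTGCAT bound by OCT factors in H2B genes and CCAAT boxes in several types. RefSeq promoters on GRCh38.p14 matched 49 of the listed genes, and the 250 bases before each start were searched on both strands. ATTTGCAT was present in 7 of 11 H2B promoters and 8 of 13 H2A promoters, and in 1.63% of all 35116 promoters. It was present in 0 of 5 H1, 0 of 8 H3 and 0 of 12 H4 promoters. Where H2A and H2B genes start in opposite directions close together, their windows can overlap, and the same site can count for both. The 250 bases searched for HIST1H2AG include the 120 before HIST1H2BJ, which hold ATTTGCAT, while the 120 before HIST1H2AG hold none. How often H2A promoters hold a site outside the H2B windows was not tested. CCAAT was present in each matched H1, H2A, H2B and H3 promoter and in 3 of 12 H4 promoters, against 32.0% of all promoters. TATAAA, which can overlap its own reverse complement TTTATA, was present in 65.3% of the 49 and in 10.7% of all. The 120 bases before the start are shown for HIST1H3F, which had the largest fall among genes with even replicates, for HIST1H4D as an H4 gene without CCAAT, and for HIST1H2BJ and HIST1H2AG, which start in opposite directions from neighbouring windows. Capitals mark ATTTGCAT, CCAAT and TATAAA on either strand, and each sequence is read on the strand of its gene.
HIST1H3F, chr6:26250636-26250755, minus strand: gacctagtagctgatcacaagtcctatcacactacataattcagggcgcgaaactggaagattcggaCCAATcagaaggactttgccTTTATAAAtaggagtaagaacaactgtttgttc
HIST1H4D, chr6:26189113-26189232, minus strand: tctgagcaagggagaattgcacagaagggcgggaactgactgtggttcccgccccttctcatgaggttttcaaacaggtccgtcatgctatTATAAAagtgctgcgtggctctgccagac
HIST1H2BJ, chr6:27132796-27132915, minus strand: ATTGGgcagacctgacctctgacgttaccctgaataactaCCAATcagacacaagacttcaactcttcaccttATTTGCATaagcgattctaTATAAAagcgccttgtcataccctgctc
HIST1H2AG, chr6:27132923-27133042, plus strand: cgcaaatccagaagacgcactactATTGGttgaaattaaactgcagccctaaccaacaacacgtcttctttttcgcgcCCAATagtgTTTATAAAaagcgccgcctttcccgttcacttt
These letters describe the windows only, and all 4 genes had lower values after TP-064.

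Histone RNA was lower after TP-064 in nearly every clustered gene and in all 5 histone types. The 59 genes together took 2.85%, 2.86% and 2.87% of the reads of DMSO replicates 1, 2 and 3 and 0.880%, 1.01% and 0.838% of the reads of TP-064 replicates 1, 2 and 3, and the groups did not overlap. The summed normalized read count, which is the number of reads per gene divided by a size factor for the library, was 388245 ± 46641 (SD, n = 3) after TP-064 and 1328336 ± 13829 (SD, n = 3) in DMSO, or 29.2% of the DMSO sum. In bulk RNA, fewer cells that make histone RNA and less of it per cell cannot be told apart.

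**Figure D1:**
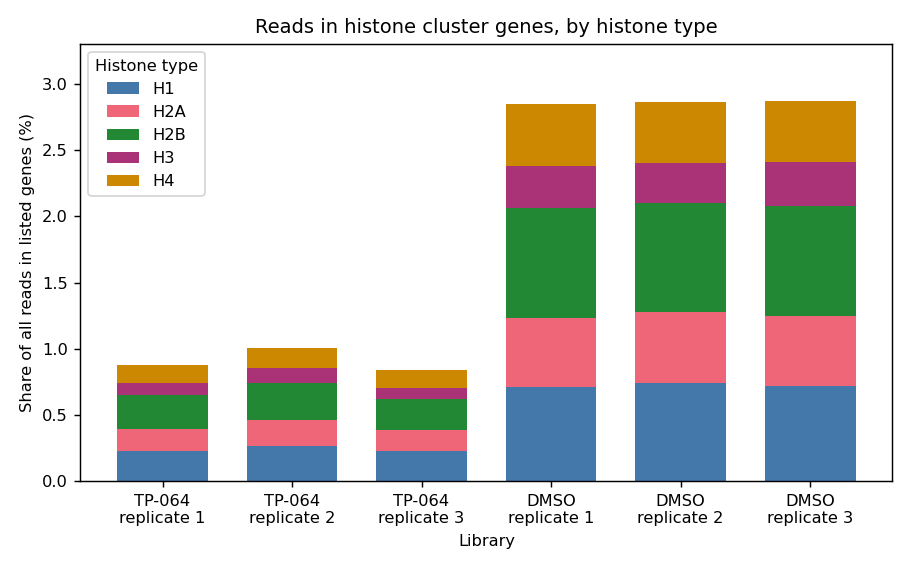
Share of all reads in listed genes (y axis, percent) that fell in the clustered histone genes in each of the 6 libraries (x axis), stacked by histone type. The 3 DMSO bars reach 2.85% to 2.87%, the 3 TP-064 bars reach 0.838% to 1.01%, and all 5 types appear in every bar.

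Of the 59 genes, 58 reached a mean of 10 normalized read counts over the 6 samples and were tested with limma on log2(normalized read count + 1). At a Benjamini-Hochberg adjusted p under 0.05 over all 16048 genes tested, 55 were lower after TP-064, 2 were higher (HIST1H2BE and HIST2H4A) and 1 was not called (HIST1H1T). The response of the line was broad, since 65.1% of all tested genes were called, 33.3% lower and 31.9% higher, and the count of calls is read against those shares. A fall of at least 2-fold was called in 52 of the 58 histone genes and in 6.56% of all tested genes. The median log2 fold change was -1.83 over the histone genes and 0.01 over all tested genes. Scaling to library size instead moved the median of all genes to 0.13 and the calls from 5112 higher and 5337 lower to 6655 higher and 4152 lower, and the histone median was then -1.71 with 55 genes lower. All 3 TP-064 samples lay below all 3 DMSO samples in 55 of the 58 genes, against 35.2% of all tested genes, and the groups did not overlap in either direction in 69.1% of all tested genes. The 8 tested genes with a mean under 500 hold both genes with higher values and the gene that was not called. Among the 50 genes with a mean of at least 500, all 50 were lower, from -2.67 to -0.60.

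**Figure D2:**
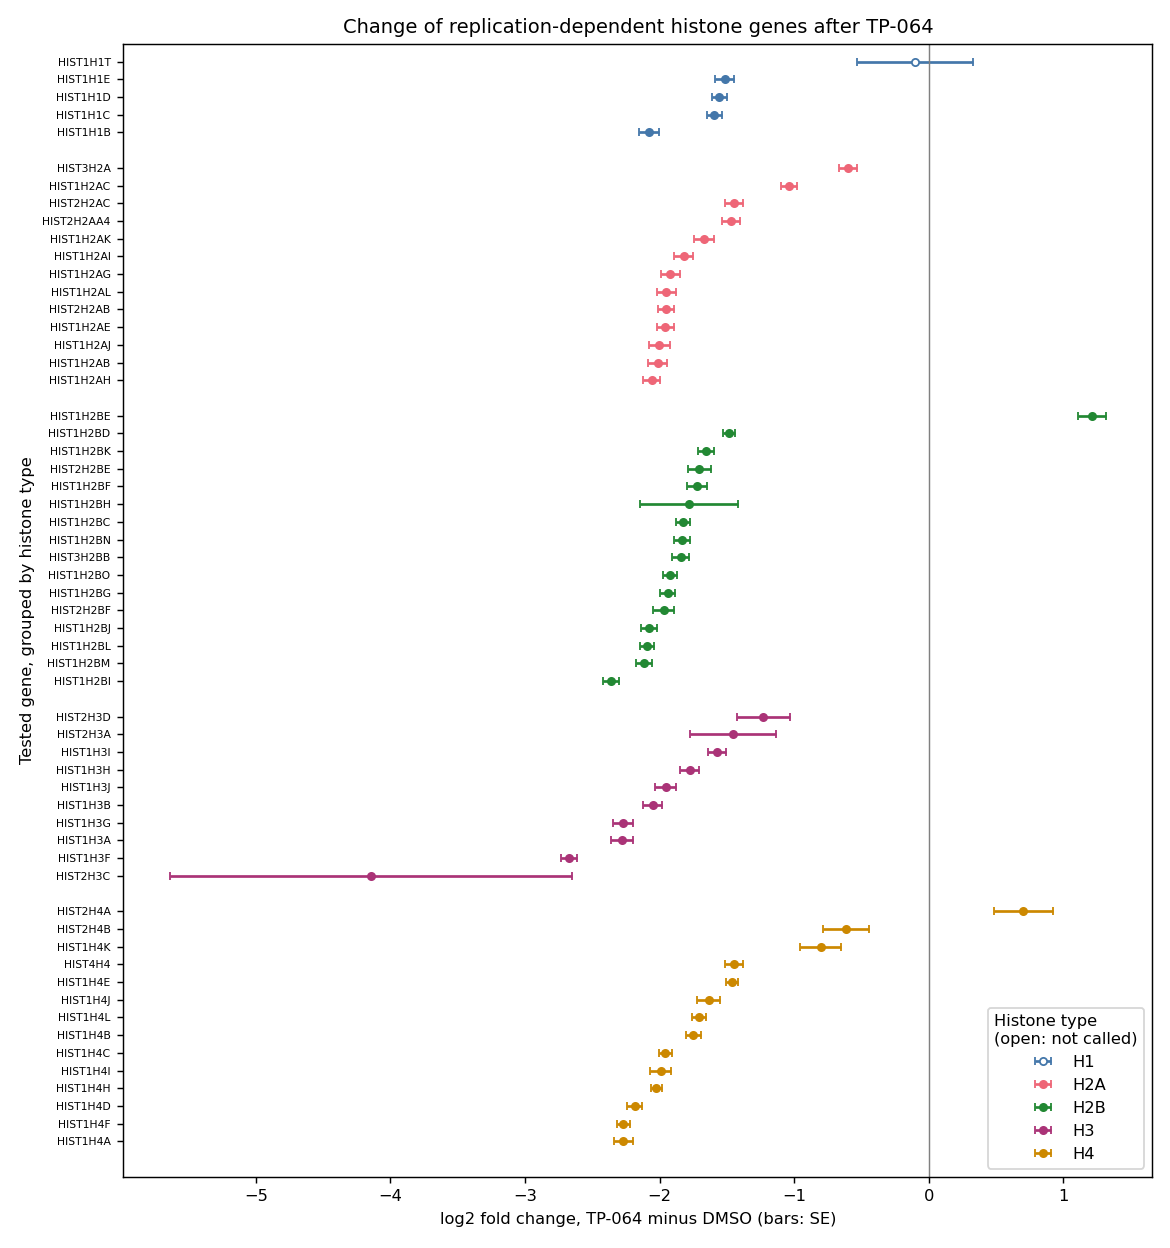
Log2 fold change, TP-064 minus DMSO on the log2(normalized read count + 1) scale (x axis), of the 58 tested genes (y axis) grouped by histone type, with bars for the standard error and an open point for the gene not called. Most points lie between -2.67 and -1.04, HIST1H2BE and HIST2H4A lie right of 0, and HIST2H3C has the widest bar.

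The reads assigned to listed genes came to 41354131 to 48360867 per library, and they bound counting error only. TP-064 replicate 2 was the highest TP-064 library in 54 of the 58 histone genes (93.1%), against 43.0% of all tested genes. Without TP-064 replicate 2 the median was -1.92 and 55 genes were lower. The B lineage markers CD79A, CD79B, MS4A1 and PAX5 were present in every library, with a summed level of 88535 to 95379.6 after TP-064 and 89699 to 91154 in DMSO, and the markers went both ways: CD79A (-0.62) and CD79B (-0.32) were called lower, and MS4A1 (0.90) and PAX5 (0.31) higher. Of the T lineage markers, CD3D, CD3E and CD2 had no row used here, and CD247 lay at 11.9 to 12.2 after TP-064 and 28.0 to 42.7 in DMSO. The 3 of 4 myeloid markers with a row summed to 71.2 to 99.5 after TP-064 and 34.6 to 65.6 in DMSO, and of 3 epithelial markers only KRT8 had a row, at 8.12 to 17.8 and 2.16 to 15.9. Among the myeloid markers CD14 was called lower (-1.30, SE 0.41), LYZ was not called, and CSF1R was called higher, at 68.2, 49.5 and 75.2 after TP-064 and 12.5, 18.9 and 6.49 in DMSO (2.35, SE 0.32). The part of these markers in the results was not tested.

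Linker histone H1 compacts nucleosome arrays. Of its 5 listed genes, 4 were lower after TP-064 and HIST1H1T was not called, with a median of -1.56 for the 5. HIST1H1B had the highest level per kilobase of exon of all the clustered genes in DMSO, at 172006 normalized read counts per kb. Its model lacks UTRs, as do those of HIST1H3B and HIST1H1C, which raises their level per kb against genes with full models, so the order is uncertain. Replicates 1, 2 and 3 gave 25959, 32617 and 25031 normalized read counts after TP-064 and 116094, 120958 and 114356 in DMSO, and all values below follow that order. The groups were far apart, and the level after TP-064 was 23.8% of that in DMSO, a log2 fold change of -2.08 (SE 0.07, adjusted p 2.63e-12). HIST1H1C, which is also reported to give polyadenylated transcripts, stood at 27243, 32276 and 26921 after TP-064 and at 85239, 89594 and 85344 in DMSO. HIST1H1E gave 28909.8, 36595 and 29218 after TP-064 and 86049.9, 91674 and 91627 in DMSO. Both were lower in every TP-064 sample, with changes of -1.59 (SE 0.06) and -1.52 (SE 0.07), and HIST1H1D changed by -1.56. HIST1H1T, a linker histone of the male germ line, gave 10.5, 7.91 and 11.2 after TP-064 and 17.6, 11.9 and 5.41 in DMSO. The groups overlapped, and the change of -0.10 (SE 0.43, adjusted p 0.848) was too imprecise at this level to give a direction.

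H2A pairs with H2B on the face of the nucleosome, and 13 of its 13 tested genes were lower, with a median of -1.92. HIST1H2AG, the H2A gene with the highest mean, gave 11929, 14480.0 and 10946 after TP-064 and 45427, 48114 and 46913 in DMSO, a change of -1.92 (SE 0.07). It stood at 26.6% of its DMSO level, with no overlap between groups. The largest changes were -2.06 for HIST1H2AH and -2.01 for HIST1H2AB. The smallest falls in this type were those of HIST3H2A and HIST1H2AC. HIST3H2A, which lies apart from the other H2A genes on chromosome 1 (chr1:228456979-228457873), gave 1690.4, 1939.7 and 1523 after TP-064 and 2518, 2565 and 2717 in DMSO. It stayed at 66.1% of the DMSO level, a change of -0.60 (SE 0.07, adjusted p 1.45e-06), and the lowest DMSO sample was still above the highest TP-064 sample. HIST1H2AC, next after HIST1H2AG by mean and whose longest annotated transcript runs 1128 bases past the stem-loop, gave 12797, 15227 and 12270.0 after TP-064 and 26374, 27603 and 28527 in DMSO, a change of -1.04 (SE 0.06, adjusted p 1.15e-09). HIST2H2AA3 was not tested, with at most 12.5 normalized read counts in any library.

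H2B was lower in 15 of 16 tested genes, with a median of -1.84. HIST2H2BF, which had the highest mean of this type, gave 18230.4, 22131 and 16354 after TP-064 and 73141, 69979 and 77277 in DMSO, a change of -1.97 (SE 0.08). HIST2H2BE, the H2B gene of the same cluster that is known to give polyadenylated RNA, gave 14989, 17888 and 12659 after TP-064 and 51986, 47181 and 48130.0 in DMSO. Its change was -1.71 (SE 0.09), and neither of these genes overlapped between groups. HIST1H2BI gave 729, 802 and 686 after TP-064 and 3947, 3898 and 3541 in DMSO, which was the largest fall of the type (-2.36, SE 0.06), followed by HIST1H2BM (-2.11, SE 0.06). HIST1H2BD changed least among the lower H2B genes, from 46801, 49116 and 44853 in DMSO to 17038, 17509 and 15843 after TP-064 (-1.48, SE 0.04). HIST1H2BH, at 15.1 to 29.1 in DMSO and 4.95 to 7.11 after TP-064, was low in all libraries and was called lower with a wide error (-1.78, SE 0.36). HIST3H2BB gave 2064, 2423 and 2001 after TP-064 and 7303, 7878 and 8067 in DMSO (-1.84, SE 0.06).

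HIST1H2BE was the exception in this type. It gave 399, 335 and 413 normalized read counts after TP-064 and 148, 163 and 183 in DMSO, so that each TP-064 sample lay above each DMSO sample, a change of 1.21 (SE 0.10, adjusted p 8.20e-08). The gene model spans chr6:26172059-26184655 on the plus strand with up to 4 exons, and 730 of its 2585 exon bases are also exonic in AL353759.1 on the opposite strand. AL353759.1 itself lay at 12.9 to 20.5 normalized read counts over the 6 libraries, with a change of -0.09 (adjusted p 0.808). Per kb, HIST1H2BE in DMSO was at 63.7 normalized read counts, against 13034 for the neighbouring HIST1H2BF. Gene counts do not show which of its transcripts the reads came from, and no source used here states how strand was handled in counting.

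H3 is the histone whose arginine residues CARM1 methylates, and all 10 tested H3 genes were lower, with a median of -2.004. HIST1H3F (chr6:26250195-26250605, minus strand, 1 exon), whose promoter is shown above, had the largest fall among the genes with a mean of at least 500. It gave 1110.1, 1219 and 991 after TP-064 and 7183, 6754 and 7195 in DMSO. The level after TP-064 was 15.7% of that in DMSO, a change of -2.67 (SE 0.06, adjusted p 3.05e-14). HIST1H3B gave 15508, 19123 and 14444 after TP-064 and 66178, 67820.5 and 68093 in DMSO (-2.05, SE 0.07). HIST1H3H, the other H3 gene of highest mean, gave 6867, 8696 and 6600.1 after TP-064 and 24664, 25214 and 25582 in DMSO (-1.78, SE 0.07). HIST1H3A and HIST1H3G, each at most 5159.6 normalized read counts in any library, changed by -2.28 and -2.27. HIST2H3C and HIST2H3D were uneven between replicates and are described with the copies below.

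H4 was lower in 13 of 14 tested genes, with a median of -1.73. HIST1H4C gave 12296, 13445 and 11461 after TP-064 and 47566, 48161 and 48485 in DMSO, with closely spaced replicates in both groups (-1.96, SE 0.05). HIST1H4E, which also had a high mean, gave 10344, 11485 and 10255 after TP-064 and 29351, 29788 and 29115 in DMSO (-1.46, SE 0.04). HIST1H4A gave 1383, 1749 and 1391 after TP-064 and 7312, 7251 and 7120.3 in DMSO. HIST1H4F gave 1599.5, 1706 and 1475 after TP-064 and 7694, 7424 and 7902 in DMSO. These were the largest H4 falls, each -2.27 on the log2 scale and to 20.9% and 20.8% of the DMSO level. HIST4H4, the single gene of its cluster on chromosome 12 (chr12:14767999-14771131), gave 1976, 2253 and 1839 after TP-064 and 5842, 5636 and 5072 in DMSO (-1.45, SE 0.07). HIST2H4A was the only H4 gene called higher, on few reads and with a near-identical copy, as described below.

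The proportions of the histone types in the summed reads of the 59 genes stayed close. H1 made up 26.5% of the sum after TP-064 and 25.3% in DMSO, and H2B 28.2% and 28.96%, with overlapping groups. H2A went from 18.5% in DMSO to 19.3%, H3 from 11.1% to 10.3% and H4 from 16.1% to 15.7%, each with no overlap between 3 and 3 libraries. For H3 and H4 the groups nearly met. The nearest libraries were TP-064 replicate 2 (10.63%) and DMSO replicate 2 (10.69%) for H3. For H4 they were TP-064 replicate 1 (15.98%) and DMSO replicate 2 (15.99%). For H2A they were TP-064 replicate 3 (19.09%) and DMSO replicate 2 (18.77%). These shares are descriptions, and no test was run on them.

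Lower values were seen in each of the 4 clusters. HIST1, the large cluster on chromosome 6, had 43 of 45 tested genes lower, with a median of -1.92. Splitting it where neighbouring genes are more than 200000 bases apart gave 3 blocks with listed genes. The block chr6:26020490-26285638 had 23 of 25 genes lower (median -1.94), chr6:27125897-27147515 had 5 of 5 (median -1.99), and chr6:27807444-27893843 had 15 of 15 (median -1.83). HIST2 on chromosome 1 had 9 of 10 lower (median -1.46), HIST3 had 2 of 2 and HIST4 had 1 of 1. The HIST2 set includes genes with near-identical copies. Without genes that share over 50% of their 50-base exon windows with another gene, 4 HIST2 genes were called lower and 0 higher. Across the 50 genes with a mean of at least 500, the level per kb in DMSO and the log2 fold change had a Spearman rho of 0.07 and a Pearson r of -0.07. This is a description across genes of the same 6 libraries, and 25 gene models without UTRs give a higher level per kb than full models would.

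**Figure D3:**
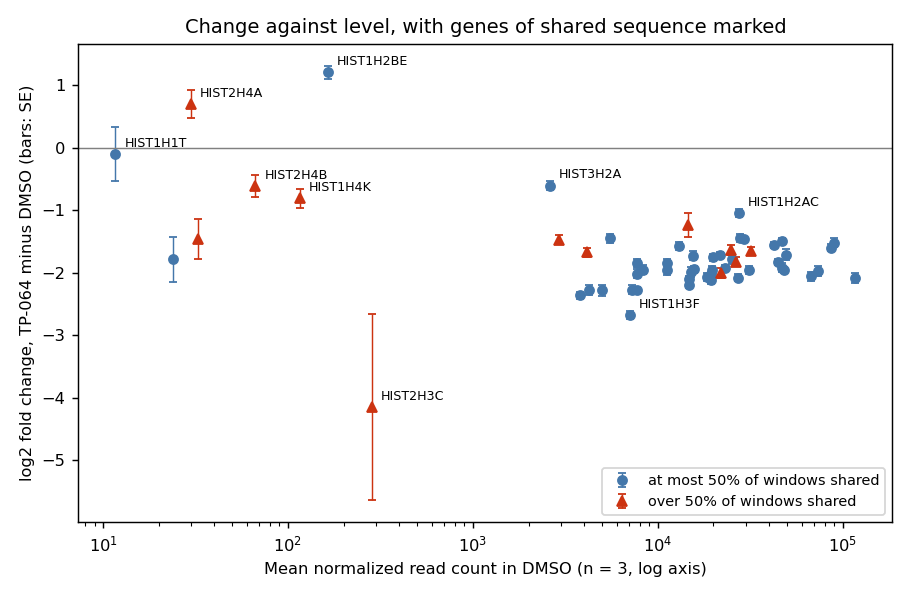
Log2 fold change with its standard error (y axis, TP-064 minus DMSO) against the mean normalized read count in DMSO (x axis, log scale, n = 3) of the 58 tested genes, with triangles for genes that share over 50% of their exon windows with another gene. The 50 genes of high level lie in a band between -2.67 and -0.60, and the genes above or near 0 have a low level.

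Many H2A and H2B genes lie head to head and start in opposite directions from one short stretch of sequence, as printed above for HIST1H2BJ and HIST1H2AG. Among tested genes, 9 such pairs lay within 1000 bases, 8 of them an H2A with an H2B gene, with 219 to 357 bases between the gene models. The other pair, HIST1H3J with HIST1H2BO, rests on a HIST1H3J model of up to 2 exons. That model shares 346 exon bases on its own strand with HIST1H2AM, an H2A gene without a row here. The 2 genes of a pair differed in log2 fold change by 0.02 to 1.24, with a median of 0.26. In 4 pairs, HIST1H3J with HIST1H2BO among them, the difference was less than 0.2. HIST1H2BG and HIST1H2AE were the most alike (-1.94 and -1.96), and HIST1H2BJ and HIST1H2AG changed by -2.08 and -1.92. In the 2 pairs that differed most, the change of the H2A gene was the smaller, by 0.78 and by 1.24. The next largest difference, 0.40, ran the other way, with HIST1H2BK at -1.66 and HIST1H2AH at -2.06. The ratio of HIST1H2AC to HIST1H2BC reads was 1.03, 1.09 and 1.04 after TP-064 and 0.605, 0.621 and 0.613 in DMSO. The ratio of HIST3H2A to HIST3H2BB reads was 0.819, 0.800 and 0.761 after TP-064 and 0.345, 0.326 and 0.337 in DMSO. Both ratios were higher in each TP-064 library than in each DMSO library, and these 2 pairs were singled out after their values were seen.

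**Figure D4:**
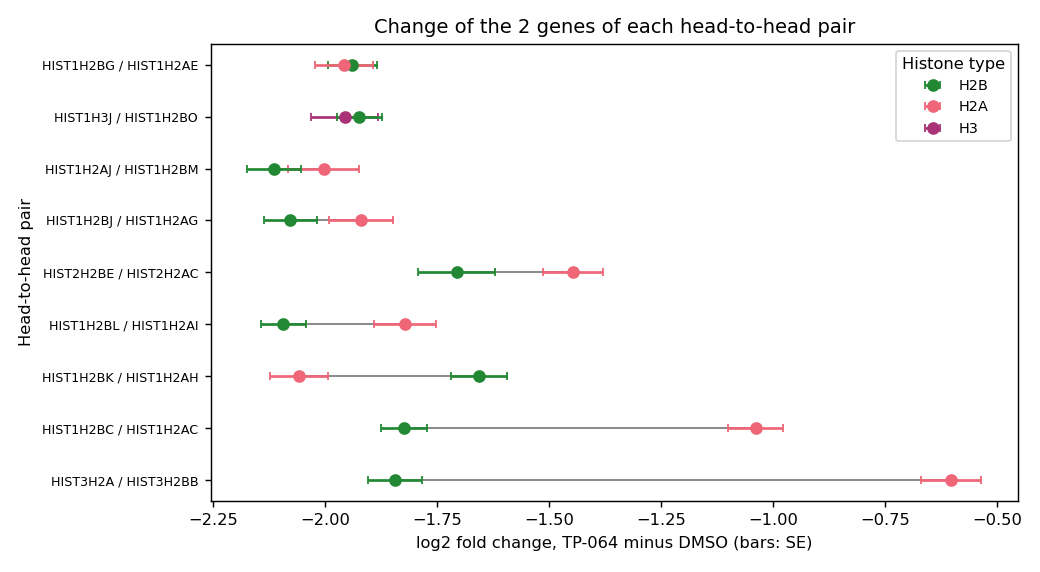
Log2 fold change with its standard error (x axis, TP-064 minus DMSO) of both genes of the 9 head-to-head pairs (y axis), coloured by histone type and joined by a line. In the 4 pairs at the top the genes differ by less than 0.2, and in the 2 pairs at the bottom the H2A gene lies far to the right of its H2B partner.

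Some clustered histone genes are so alike that reads can fit more than one. Over 50% of 50-base exon windows were shared with another gene in 13 of the 59 genes, and at most 50% in the other 46. Coding sequences of one length within a type shared a median of 90.3% of bases in H2B, 85.2% in H2A and in H3 and 83.7% in H4. Those of HIST2H2AA3 and HIST2H2AA4, HIST2H3A and HIST2H3C, HIST1H4J and HIST1H4K, and HIST2H4A and HIST2H4B were identical, so the split of reads within each of these pairs is uncertain. HIST2H4A gave 48.9, 42.5 and 54.8 after TP-064 and 33.2, 22.9 and 33.5 in DMSO, a change of 0.70 (SE 0.22, adjusted p 0.0113). Its copy HIST2H4B gave 41.1, 49.5 and 39.6 after TP-064 and 62.3, 67.6 and 70.3 in DMSO, a change of -0.61 (SE 0.17, adjusted p 0.00577). The copies moved in opposite directions, and their sum was 90.0, 92.0 and 94.4 after TP-064 and 95.5, 90.5 and 104 in DMSO, a change of -0.07 (SE 0.13, adjusted p 0.680). Without DMSO replicate 2 the change of HIST2H4A was 0.53 (adjusted p 0.0538). HIST2H4A also shares 173 exon bases with HIST2H3C on the opposite strand. Neither the call of HIST2H4A as higher nor that of HIST2H4B as lower, which is among the H4 and HIST2 counts above, holds for the summed pair.

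HIST2H3C was listed at 0, 0.99 and 0 after TP-064 and at 3.11, 845 and 2.16 in DMSO. DMSO replicate 2 alone carries its fall (-4.14, SE 1.49, adjusted p 0.0243), and without that library the gene had a mean under 10 and was not tested. With TP-064 libraries at 0 the fitted value depends on the pseudocount and was -2.79 with a pseudocount of 5. HIST2H3D gave 5559.9, 7114 and 5189 after TP-064 and 17247, 8698 and 17689 in DMSO, so that the same library was low for it. Its change was -1.23 (SE 0.20) with all libraries and -1.57 without DMSO replicate 2. HIST2H3A lay at 7.87 to 16.8 after TP-064 and at 26.8 to 40.5 in DMSO (-1.45, SE 0.32). The 3 genes summed gave 5568, 7132 and 5199.6 after TP-064 and 17291, 9569.6 and 17722 in DMSO. That was a change of -1.28 (SE 0.17, adjusted p 1.16e-05), with DMSO replicate 2 still the lowest DMSO library. HIST2H3D is not in any of the identical pairs above. Of its 50-base exon windows, 80.4% are shared, with AC239798.4 as the commonest partner, so its reads may also fit genes outside the sum. Why DMSO replicate 2 was low for HIST2H3D was not tested. HIST1H4K, at 60.3 to 72.2 after TP-064 and 96.2 to 132 in DMSO, changed by -0.81, and HIST1H4J and HIST1H4K summed changed by -1.63 (SE 0.08), close to HIST1H4J alone. With these sets of genes summed, 51 genes were called lower and 1 higher.

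**Figure D5:**
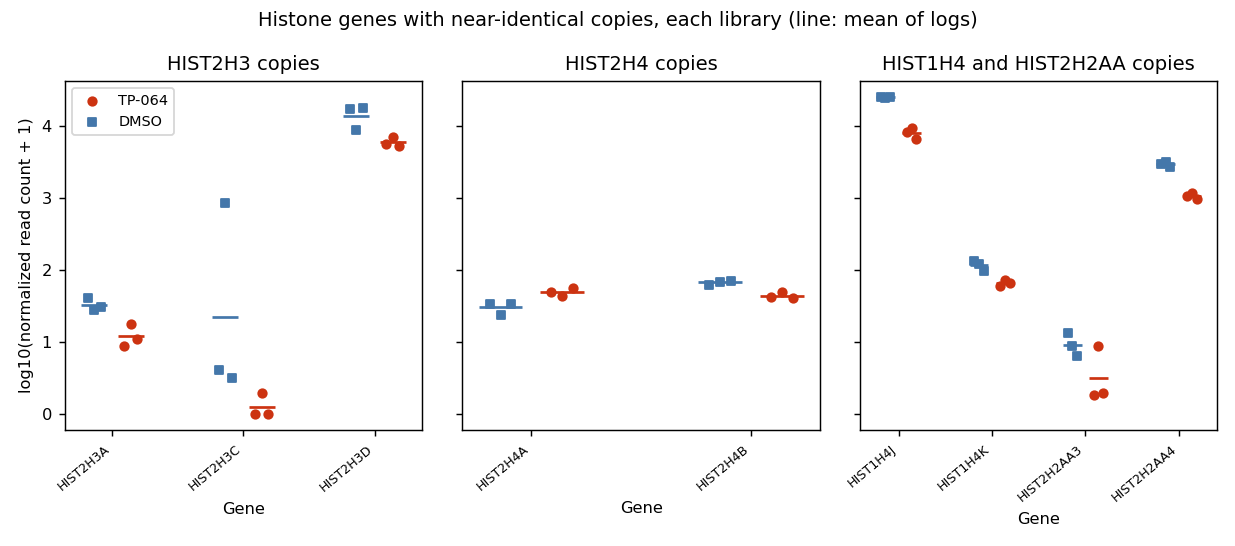
Log10(normalized read count + 1) (y axis) in each of the 6 libraries for genes with near-identical copies and for HIST2H3D (x axis). Circles are for TP-064 and squares for DMSO, with a line at the mean of each group. HIST2H3C stands high in 1 DMSO library alone, the same library that is low for HIST2H3D, and HIST2H4A and HIST2H4B shift in opposite directions.

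Genes with a transcript annotated past the stem-loop were compared with genes whose model holds no 3′ UTR. Of 28 tested genes with more than 30 annotated bases past the stem-loop, 26 were lower and 2 higher, with a median of -1.78. Of 25 tested genes without an annotated 3′ UTR, 25 were lower, with a median of -1.96. The 7 genes that the literature names as sources of polyadenylated histone RNA were HIST1H1C, HIST1H2AC, HIST1H2BC, HIST1H2BD, HIST1H2BJ, HIST1H2BK and HIST2H2BE. All 7 were lower, with a median of -1.66, and they ranged from -2.08 for HIST1H2BJ to -1.04 for HIST1H2AC. HIST1H2BC changed by -1.82 and HIST1H2BK by -1.66. HIST1H1C and HIST1H2BK of this list have no annotated 3′ UTR and so are also among the 25 genes above. The first 2 sets thus divide genes by their annotated models, not by the RNA they make. The difference between these sets was not tested.

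Taken as 1 list, genes for the transcription, 3′ end processing and decay of histone messages were mostly lower, but several of the decay genes were not called. Of 32 such genes, 22 were lower, 3 were higher and 7 were not called, with a median of -0.35 against 0.01 over all tested genes. Of all tested genes, 33.3% were called lower and 31.9% higher. CCNE2, a cyclin E that activates CDK2 at the start of S phase, gave 931, 1182 and 1068 after TP-064 and 3584, 3735 and 3714 in DMSO (-1.80, SE 0.07). CDK2, its kinase, gave 3406, 3828 and 3406 after TP-064 and 8745, 9261 and 8895 in DMSO (-1.34, SE 0.05). SLBP, which binds the stem-loop, gave 4039.9, 4376 and 4137 after TP-064 and 10134, 10272 and 9802 in DMSO (-1.27, SE 0.04). All 3 lay well below DMSO in every TP-064 sample. NPAT, the coactivator of the locus bodies, changed by -0.33 (SE 0.04), and its partner CASP8AP2 by -0.91 (SE 0.04). LSM11, a protein of the U7 particle, changed by -0.49, and the values of its partner LSM10 overlapped between groups (-0.11, adjusted p 0.209). Of the decay genes, ERI1 (-0.64, SE 0.05) and UPF1 (-0.11, SE 0.03) were called lower. TUT7 (0.004, adjusted p 0.938), LSM1 (-0.07, adjusted p 0.226) and XRN1 (0.003, adjusted p 0.960) were not called. The genes called higher were HINFP, a factor that binds H4 promoters (0.35, SE 0.04), CDK9, the kinase of the elongation factor P-TEFb (0.20, SE 0.03), and NCBP2, a cap-binding protein (0.17, SE 0.04). With library size scaling, 19 genes of this list were lower and 6 higher.

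Most histone variants and other histones from genes outside these clusters are less tied to DNA replication, and that link was not tested here for any of them. Of 12 such genes, called replication-independent here, 10 were tested, with a median of -0.80 against 0.01 over all tested genes. Of these 10, 7 were lower, 1 was higher and 2 were not called. Over all tested genes, 33.3% were called lower and 31.9% higher. CENPA, the H3 variant of centromeres, gave 622, 645 and 546 after TP-064 and 2015, 1929 and 1948 in DMSO (-1.70, SE 0.06). H2AFZ, which encodes H2A.Z, gave 10759, 12342 and 11597 after TP-064 and 33604, 34129 and 32492 in DMSO (-1.53, SE 0.04), and H2AFV, a second gene of that variant, changed by -0.84 (SE 0.03). These 3 were lower in each TP-064 sample. H1FX, a linker histone variant, gave 7939, 8001 and 7195 after TP-064 and 4651, 4442 and 4741 in DMSO and was higher (0.74, SE 0.04). Of the genes for the H3 replacement variant, H3F3A was lower (-0.46, SE 0.04), and H3F3B was not called (0.05, SE 0.04, adjusted p 0.269). The difference between clustered and replication-independent histone genes was not tested.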

How the data were processed

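RNA was measured in 3 TP-064 and 3 DMSO samples of Toledo, grouped by the sample labels. The authors deposited 1 table of 18278 genes that holds a size-factor scaled signal for each gene in each sample. The tools were DESeq 1.18.0, HTSeq 0.6.0 and TopHat2 2.0.10 on hg38, per the submitters' processing notes. Per the labels' protocols, libraries were made with a stranded kit from polyadenylated RNA. The annotation release, strand setting and row filter were not given in the sources used here. Values were whole multiples of 1 step in each column (100% at a tolerance of 0.001), which gave the reads and size factors of 0.925 to 1.14. In both replicates numbered 2 the step is close to 1 and cannot be told from rounding by size alone, so depths and count tests that use these libraries carry that limit.

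limma 3.58.1 (trend option) in R 4.3.3 was fitted to log2(value + 1) of all 16048 genes with a mean of at least 10, which left out 2230. No replicate block was used, residual degrees of freedom were 4, and p-values were two-sided and Benjamini-Hochberg adjusted over all genes tested, with calls under 0.05. Fold changes on that scale understate changes of low genes. The script was tested on simulated data. Symbols came from GENCODE 29 (18214 of 18278 matched). The members, the gene lists and the naming rule were chosen with earlier results of these data known. The rule names, per histone type, the 2 genes of highest mean and the 2 with the largest called change in each direction. It adds every HIST3 or HIST4 member, each member called higher or not called, and the polyadenylated list. From the other lists it takes up to 3 called genes with the smallest p in each direction. Genes named beyond it, such as NPAT or the copies, were chosen after their values were seen. Alternatives were other pseudocounts, filters and scalings, edgeR 4.0.16, DESeq2 1.42.0, a replicate block, a 1.2-fold null, each replicate left out, and members left out for shared sequence or opposite-strand overlap. Summing near-identical copies, with HIST2H3D added to HIST2H3A and HIST2H3C, was chosen after seeing the data. One marker of the cell type lists is not reported here.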

Additional observations from a re-analysis of the deposited data

How the results depend on the processing

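The count of histone genes called lower was 44 to 55 over all alternatives run, with the low values where members were left out: 44 without members that share most of their sequence, 48 without those that overlap exons of the other strand, and 51 with near-identical copies summed. Leaving out each replicate gave 54 to 55 genes lower and medians of -1.92 to -1.78. The count called higher was 1 with a filter at 1 CPM in 3 samples, with a 1.2-fold null, with near-identical copies summed and without members of shared sequence, and 0 without members that overlap exons of the other strand. It was 1 to 2 when a replicate was left out. H4 genes and HIST2 genes called higher were 0 under each of these 5 alternatives and 0 to 1 when a replicate was left out, with 0 without DMSO replicate 2. H2B and HIST1 genes called higher were 0 without members that overlap an opposite exon. HIST2 genes called lower were 4 without those members and 4 without members of shared sequence. Histone mRNA supply genes called higher were 6 with library size scaling and 0 with the 1.2-fold null, and replication-independent genes called higher were 2 with library size scaling. The cause of these differences was not tested beyond the smaller sets of genes that the alternatives leave.

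No direction of a called result was reversed. Of the single genes, HIST2H4A (adjusted p 0.0878), HIST2H4B (0.0819), CDK9, HINFP and NCBP2 lost their call under the 1.2-fold null. HIST2H3C lost it with a pseudocount of 5 (-2.79, adjusted p 0.0605) and without TP-064 replicate 1 (-3.98, adjusted p 0.0758), and DESeq2 gave it no adjusted p. Same-numbered samples did not deviate together (correlations of -0.0859, 0.0659 and -0.0793), so the numbers are not taken as pairs. A replicate block gave 55 histone genes lower and 2 higher, and 5141 higher and 5350 lower calls over all genes. HIST1H1T has few reads, and a change in it was not detectable at this depth. HIST2H2AA3 shares its whole coding sequence with HIST2H2AA4, so the split of reads between them is uncertain.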
